A study of Mus musculus with 35 samples.

Results

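In the injured brains given IL-4 expressing mesenchymal stromal cells (IL-4 MSCs), the genes that interleukin-4 is known to induce in macrophages were lower at 3 weeks post injury (3 wpi) than at 1 week (1 wpi). Of 35 such genes, 29 fell (against 16.6% of all genes tested) and none rose. In 25 of the 29 the mice of the 2 weeks did not overlap (13.9% of all genes were lower without overlap). Arg1, Chil3 and Mrc1 were among them, and the mean level of Mrc1 went from 91.5 to 6.96 CPM, the unit of level used throughout, which is the estimated count scaled to library size. Neuronal genes moved the other way by much smaller steps, with a median log2 fold change of 0.15. Of 165 genes for synapses, ion channels, axons and neuronal activity, 85 rose (against 16.4% of all genes) and 2 fell.

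The comparison was made between 10 of the 34 libraries of the series, 5 from IL-4 MSC mice at 3 wpi and 5 from IL-4 MSC mice at 1 wpi. They were chosen by their treatment and week labels alone, and different mice were used at each week, with 1 library per mouse. All mice were males of the C57BL/6NCrl strain, and no transgene or deletion was stated. The mice received a closed head injury, and in a later operation IL-4 MSCs were injected into the left hippocampus. These are vendor-supplied primary mesenchymal stromal cells from C57BL/6N mice that had been transfected with synthetic IL-4 messenger RNA, so that they secrete IL-4 for a time. The other groups were mice injected with untransfected MSCs (5 at each week), mice injected with phosphate-buffered saline (PBS; 5 at 1 wpi and 4 at 3 wpi) and Sham mice, which went through every step but the impact and were not injected. The Sham mice, 2 from week 1 and 3 from week 3, were treated as 1 group of 5. The tissue is labelled as left cortex, but it was taken around the injection site, and markers of striatum and hippocampus were present in every library. Each combination of treatment and week, Sham included, has a first number of its own in the sample names, so whatever that number stands for cannot be told apart from treatment and week.

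The libraries held 29838423 to 41554322 estimated counts, and those of the IL-4 MSC mice 29838423 to 38183911. In such libraries 3 counts correspond to 0.0722 to 0.101 CPM, and levels at or below this were at the limit of detection. Replicate libraries of the IL-4 MSC groups correlated at r = 0.983 to 0.994 over the genes tested, and no pair was close enough to be a duplicate deposit of the other. One MSC library at 3 wpi (mouse 5) stood apart in several inflammatory genes, with 104 CPM of Lcn2 and 16.0 CPM of Mrc1. The count of genes that rose more or fell less than in the MSC mice is therefore also given without it. The MSC values of lists and single genes keep it.

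Interleukin-4 is a type 2 cytokine, made mainly by T helper 2 cells, eosinophils, basophils and mast cells. It binds a receptor built from the chain encoded by Il4ra with a partner chain (Il2rg or Il13ra1), and the kinases bound to the receptor then activate the transcription factor STAT6. In macrophages and microglia STAT6 turns on the state called alternative or M2-like activation, for which arginase 1 (Arg1), the chitinase-like protein Chil3 and the mannose receptor Mrc1 are the usual mouse markers. After traumatic brain injury the tissue also fills with reactive microglia, infiltrating macrophages and reactive astrocytes, while neurons are lost or lower their synaptic genes.

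STAT6 dimers bind a pair of TTC and GAA half-sites, classically spaced by 4 bases: TTC, any 4 bases, then GAA, a motif that reads the same on both strands. RefSeq promoter windows (GRCm38.p6, 250 bases before to 50 bases after each start) were matched for 25 of the 35 IL-4 response genes. The motif was in the windows of 6 of the 25 genes (24.0%), against 6.79% of 13279 tested genes and 8.01% of 27025 genes in the table. A match describes letters in a window and does not show binding. The 6 stretches are printed because their genes are those of the response list whose promoters hold the motif, which is in capitals, with 25 bases of context on each side. Clec7a lies on the minus strand (chr6:129472876-129472935), Il1rn on the plus strand (chr2:24345145-24345204), Pdcd1lg2 on the plus strand (chr19:29410812-29410871), Retnla on the plus strand (chr16:48842439-48842498), Tfec on the minus strand (chr6:16898607-16898666) and Ccl17 on the plus strand (chr8:94810274-94810333), each shown 5′ to 3′ on the strand of its gene.
Clec7a: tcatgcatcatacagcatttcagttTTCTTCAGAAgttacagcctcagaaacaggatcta
Il1rn: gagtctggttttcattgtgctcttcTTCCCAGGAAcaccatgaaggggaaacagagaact
Pdcd1lg2: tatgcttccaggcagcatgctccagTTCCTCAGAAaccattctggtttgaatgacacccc
Retnla: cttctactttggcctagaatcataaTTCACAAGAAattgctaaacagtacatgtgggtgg
Tfec: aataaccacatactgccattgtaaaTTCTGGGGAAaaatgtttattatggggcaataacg
Ccl17: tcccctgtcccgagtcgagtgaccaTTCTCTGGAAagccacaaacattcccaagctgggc

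Of these 6 genes, Clec7a, Il1rn, Pdcd1lg2, Retnla and Tfec fell from 1 to 3 wpi. Ccl17, a chemokine that attracts T helper 2 cells, was at 0.240 to 0.533 CPM at 1 wpi and 0.254 to 0.585 CPM at 3 wpi, and it was not called.

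Over the whole transcriptome, 17131 of 21203 protein-coding genes had enough counts to be tested. Between 3 and 1 wpi in the IL-4 MSC mice, 2812 genes (16.4%) rose and 2842 (16.6%) fell at an adjusted p under 0.05 in edgeR's quasi-likelihood test, which together made 33.0% of the genes tested. The falls were larger than the rises. At a log2 fold change of 1 or more in size, 917 genes (5.35%) were lower and 72 (0.420%) higher. In 2374 genes (13.9%), called or not, every 3 wpi mouse was below every 1 wpi mouse, and in 1477 (8.62%) every 3 wpi mouse was above. The median log2 fold change over all tested genes was 0.03, so the scaling left the bulk of genes near 0. The count of rises was less stable than that of falls: it dropped to 1729 without 3 wpi mouse 3, to 1547 without 3 wpi mouse 4, and to 1816, 1716, 1781 and 1811 without 1 wpi mouse 1, 2, 3 and 4.

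Arg1, Chil3 and Ccl24, all induced by IL-4, were among the 10 largest falls. Arg1, the urea cycle enzyme that competes with nitric oxide synthase for arginine (chromosome 10, 24915221 to 24927484, minus strand, GRCm38), was measured at 164, 148, 163, 147 and 106 CPM in the 5 mice at 1 wpi. At 3 wpi Arg1 was at 0.367, 0.506, 0.228, 0.136 and 0.398 CPM. The weeks were separate by a wide margin, and the 3 wpi mice reached down into the Sham range of 0.0926 to 0.295 CPM. The log2 fold change of Arg1 was -8.79 (SE 0.57, adjusted p = 2.38e-13, edgeR). The difference of Arg1 from Sham was 9.57 on the log2 scale at 1 wpi and 0.78 at 3 wpi (adjusted p = 0.81).

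Chil3, also known as Ym1, a secreted chitinase-like lectin of alternatively activated macrophages (chromosome 3, 106147554 to 106167564, minus strand), was at 182, 144, 95.2, 198 and 103 CPM at 1 wpi. At 3 wpi Chil3 was at 0.254, 1.33, 0.0650, 0.0273 and 0.106 CPM. Mouse 2 was the highest of the 3 wpi mice and still far under the lowest 1 wpi mouse, and 2 of the 5 mice were below the level of 3 counts. The log2 fold change of Chil3 was -8.72 (SE 0.41, adjusted p = 2.33e-16). Its near copy Chil4 stayed under 1 CPM in every library and fell by 2.24 on the log2 scale (adjusted p = 0.00429), and reads shared by the copies make the split between them uncertain.

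Mrc1, the mannose receptor CD206 (chromosome 2, 14229392 to 14332057, plus strand), was at 103, 81.9, 89.4, 101 and 82.9 CPM at 1 wpi. At 3 wpi Mrc1 was at 7.20, 7.15, 7.22, 6.91 and 6.31 CPM. The 3 wpi mice lay within a narrow band inside the Sham range of 4.67 to 9.48 CPM. The log2 fold change of Mrc1 was -3.72 (SE 0.18, adjusted p = 9.89e-16), and its difference from Sham at 3 wpi was 0.01 (adjusted p = 0.99).

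Retnla, the secreted resistin-like molecule also called Fizz1 (chromosome 16, 48842551 to 48844461, plus strand), went from 7.12, 11.9, 8.38, 6.29 and 9.73 CPM to 0.226, 0.221, 0.0976, 0.0546 and 0.212 CPM. Ccl24, the eosinophil attractant eotaxin-2, went from 21.3, 20.9, 24.5, 16.2 and 12.6 CPM to 0.198, 0.126, 0.423, 0.519 and 0.212 CPM. Pdcd1lg2, which encodes the T cell inhibitory ligand PD-L2, went from 3.40, 4.74, 4.12, 5.27 and 3.46 CPM to 0.0565, 0.0632, 0.0650, 0.109 and 0.0531 CPM. In each of these 3 genes the weeks did not overlap, and most 3 wpi values of Pdcd1lg2 were at or under the level of 3 counts. The log2 fold changes were -5.71 for Retnla (SE 0.32, adjusted p = 1.91e-14), -6.00 for Ccl24 (SE 0.27, adjusted p = 2.05e-16) and -5.84 for Pdcd1lg2 (SE 0.36, adjusted p = 8e-14).

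**Figure D1:**
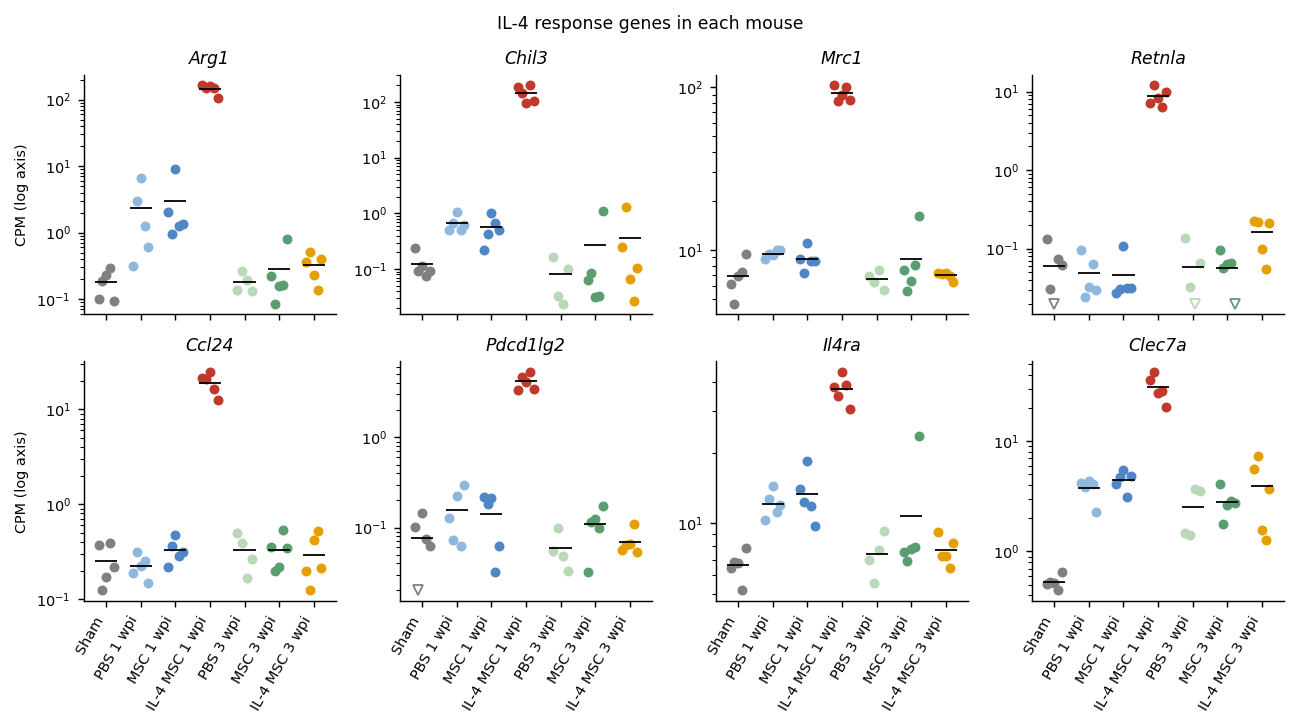
CPM (log axis) of 8 genes of the IL-4 response and its receptor in each mouse of the 7 groups; each point is a mouse, the black line is the group mean, and open triangles at the bottom mark mice at 0 counts. The 5 IL-4 MSC mice at 1 wpi stood above every other mouse in all 8 panels, and by 3 wpi Mrc1 was at 6.31 to 7.22 CPM, inside the Sham range of 4.67 to 9.48 CPM.

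Across the whole response list the fall had a median of -2.22 on the log2 scale, with a range of -8.79 to 0.25, against 0.03 over all genes. Other members that fell were Tfec, a transcription factor of macrophages (-5.61), Alox15, a lipoxygenase (-4.16), the lectin Mgl2 (-3.52), the haemoglobin scavenger receptor Cd163 (-2.96), transglutaminase 2 (Tgm2, -2.36) and the lectin Clec10a (-1.99). Those that were not called were Cd209f, Egr2, Ccl17, Ccl22, Matk and Pparg. Relative to Sham the list was raised at 1 wpi, with a median of 2.29 and 28 genes higher (18.4% of all genes were higher than Sham at 1 wpi). At 3 wpi its median against Sham was 0.15, with 1 gene higher and 2 lower (2.76% and 1.52% of all genes were higher and lower). The 1 wpi libraries enter both the week difference and the 1 wpi difference from Sham, and the same Sham libraries enter both differences from Sham, so these counts are not independent of each other.

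The 1 gene still above Sham was Clec7a, which encodes dectin-1, a receptor of macrophages and reactive microglia. It was at 36.2, 42.0, 27.4, 28.3 and 20.5 CPM at 1 wpi and at 5.65, 7.30, 1.56, 1.28 and 3.71 CPM at 3 wpi, against 0.443 to 0.648 CPM in Sham. The weeks did not overlap, nor did the 3 wpi mice and Sham. Clec7a fell by 2.99 on the log2 scale between the weeks (SE 0.32, adjusted p = 5.21e-09) and was 2.88 above Sham at 3 wpi (adjusted p = 0.00017). The MSC mice at 3 wpi had 1.78 to 4.11 CPM and the PBS mice 1.41 to 3.69 CPM. The 2 genes below Sham at 3 wpi were Klf4, a transcription factor (-0.53, adjusted p = 0.018), and Egr2, an immediate early transcription factor that neurons also express (-1.19, adjusted p = 0.0024).

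Genes of the receptor and its signalling chain moved with the targets. Of 15 tested signalling genes, 11 fell (73.3%, against 16.6% of all genes) and none rose, with a median of -0.96. Il4ra, the IL-4 binding chain, was at 38.2, 34.9, 43.9, 38.7 and 30.7 CPM at 1 wpi and at 9.18, 7.27, 7.25, 6.44 and 8.20 CPM at 3 wpi. Every 3 wpi mouse was below every 1 wpi mouse, and 3 wpi values lay near the Sham range of 5.17 to 7.87 CPM. Il4ra fell by 2.28 on the log2 scale (SE 0.23, adjusted p = 2.57e-09). The decoy receptor Il13ra2 fell by 3.53, the common gamma chain Il2rg by 2.33, and the feedback inhibitors Socs3 and Socs1 by 2.08 and 1.78. Stat6 itself fell by 0.73, from 20.2 to 23.4 CPM at 1 wpi to 12 to 14.1 CPM at 3 wpi. The kinase Jak3 fell by 0.96, and Jak1, Ptpn11, Irs2 and Cish were not called.

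The IL-4 gene itself could not be tested. Il4 had 4, 7, 10, 12 and 9 estimated counts in the 1 wpi mice and 3, 5, 5, 3 and 8 in the 3 wpi mice, against 0 to 7 in Sham. The groups overlapped, and no difference was detectable at this depth. Il13, the related cytokine that shares the receptor chain, had at most 3 counts in any library.

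Genes of type 2 immunity and eosinophil recruitment were lower as well. Of 16 tested, 9 fell (56.25%, against 16.6% of all genes) and none rose, with a median of -1.59. Ccl8, a monocyte and eosinophil attracting chemokine, was at 32.8, 32.7, 31.4, 42.1 and 27.0 CPM at 1 wpi and at 0.311, 0.759, 0.0325, 0.164 and 0.371 CPM at 3 wpi. No 3 wpi mouse reached 1 CPM, and Ccl8 fell by 6.65 on the log2 scale. Ccl7 fell by 7.43, the eotaxin gene Ccl11 by 4.24 and its receptor gene Ccr3 by 4.28. Siglecf, an eosinophil lectin, fell by 1.78. Epx, the eosinophil peroxidase, and the cytokine genes Il5 and Il33 were not called. Against Sham the median of this list was 1.80 at 1 wpi and 0.21 at 3 wpi.

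Macrophage genes fell as a group but did not all return to the Sham level. Of 25 genes, 21 fell (84%, against 16.6% of all genes), with a median of -2.19. At 3 wpi 6 were still higher than Sham (2.76% of all genes were). The membrane proteins Ms4a4a fell by 5.62 and Ly6c2 by 4.1, Ccr2, the receptor that draws monocytes into tissue, by 3.02, and the lysozyme gene Lyz2 by 2.07. Lgals3, which encodes galectin-3, fell by 4.11 and was still 2.19 above Sham (adjusted p = 0.011). The lysosomal glycoprotein gene Cd68 fell by 2.22 and was 0.85 above Sham (adjusted p = 0.0057), and Adgre1, the F4/80 antigen, fell by 2.19 and was 0.66 above Sham (adjusted p = 0.0087). In bulk tissue fewer cells of a type and less RNA per cell cannot be told apart.

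Cytokine and chemokine genes of inflammation showed the same order of sizes. Of 22 tested, 20 fell (90.9%, against 16.6% of all genes) and none rose, with a median of -1.82. Ccl2, the monocyte attractant MCP-1, was at 8.95, 5.92, 9.31, 5.15 and 4.59 CPM at 1 wpi and at 0.141, 0.443, 0.0976, 0.191 and 0.133 CPM at 3 wpi. The weeks did not overlap, and Ccl2 fell by 5.07 on the log2 scale (adjusted p = 5.99e-10). Its week difference was -2.79 in MSC mice and -2.61 in PBS mice, and the difference between the IL-4 MSC and MSC values did not pass the test (adjusted p = 0.07). Ccl12 fell by 3.35, the neutrophil attractant Cxcl1 by 2.91 and Cxcl10 by 2.75. Cxcl10, an interferon-induced attractant of T cells, was still 2.89 above Sham at 3 wpi (adjusted p = 0.003). Cxcl2 and Il18 were not called, and Il6, Tnf, Il10, Il12b and Ifng had too few counts to be tested.

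All 26 genes of antigen presentation and the interferon response fell (against 16.6% of all genes), with a median of -1.84. At 3 wpi 18 of the 26 remained above Sham (2.76% of all genes were). The interferon regulators and effectors Irf7, Ifi27l2a, Oasl2 and Mx1 fell by 3.76, 3.72, 2.69 and 2.65 on the log2 scale. The class I genes H2-K1 and B2m fell by 2.12 and 1.70, and the class II genes H2-Ab1 and Cd74 by 2.09 and 1.81. H2-Ab1 was 2.36 above Sham at 3 wpi (adjusted p = 0.0014).

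Microglial and complement genes also fell. Of 22 genes of disease-associated microglia and complement, 20 fell (90.9%, against 16.6% of all genes) and 1 rose, with a median of -1.04. At 3 wpi 13 were higher than Sham (2.76% of all genes were). C3, the central complement component, was at 72.6, 71.2, 66.0, 65.4 and 72.1 CPM at 1 wpi and at 26.0, 18.4, 6.18, 2.4 and 14.6 CPM at 3 wpi. The 1 wpi mice were close together while the 3 wpi mice spread from 2.4 to 26.0 CPM, with no overlap between weeks. C3 fell by 2.36 and was 2.99 above Sham at 3 wpi (adjusted p = 0.014). The complement receptors C3ar1 and C5ar1 fell by 3.04 and 2.82. Cst7, an inhibitor of lysosomal proteases that reactive microglia make, fell by 1.52 and stood 3.32 above Sham (adjusted p = 0.00019). The integrin gene Itgax fell by 1.02 and stood 3.05 above Sham (adjusted p = 0.00015). C4b, which shares reads with its near copy C4a, fell by 0.98 and stood 1.61 above Sham (adjusted p = 4.1e-06). Apoe was not called, and Lpl, a lipoprotein lipase, rose by 0.33. The call for Lpl was lost under some alternatives. Of 18 homeostatic microglial genes, 11 fell (61.1%, against 16.6% of all genes), with a median of -0.39, and none rose. In PBS mice 11 of the 18 fell too, with a median of -0.43, and in MSC mice 7, with a median of -0.27. Over all genes 4.90% fell in PBS mice and 4.93% in MSC mice.

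Reactive astrocyte genes followed the same course, with 21 of 22 lower (95.5%, against 16.6% of all genes) and a median of -1.5. Gfap, the intermediate filament that marks reactive astrocytes, was at 1120, 1388, 1218, 990 and 956 CPM at 1 wpi and at 374, 544, 275, 226 and 369 CPM at 3 wpi. All 3 wpi mice were below all 1 wpi mice and above the Sham range of 156 to 216 CPM. Gfap fell by 1.67 on the log2 scale (SE 0.18, adjusted p = 7.77e-09) and was 0.97 above Sham at 3 wpi (adjusted p = 0.0025). Its week difference was -1.06 in MSC mice and -1.34 in PBS mice, and the IL-4 MSC and MSC values did not differ past the threshold (adjusted p = 0.14). The acute response genes Tgm1, Ptx3, Lcn2 and Timp1 fell by 4.88, 4.27, 4.20 and 3.82, the protease inhibitor Serpina3n by 2.61 and the intermediate filament Vim by 2.21. Fbln5 was not called.

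**Figure D2:**
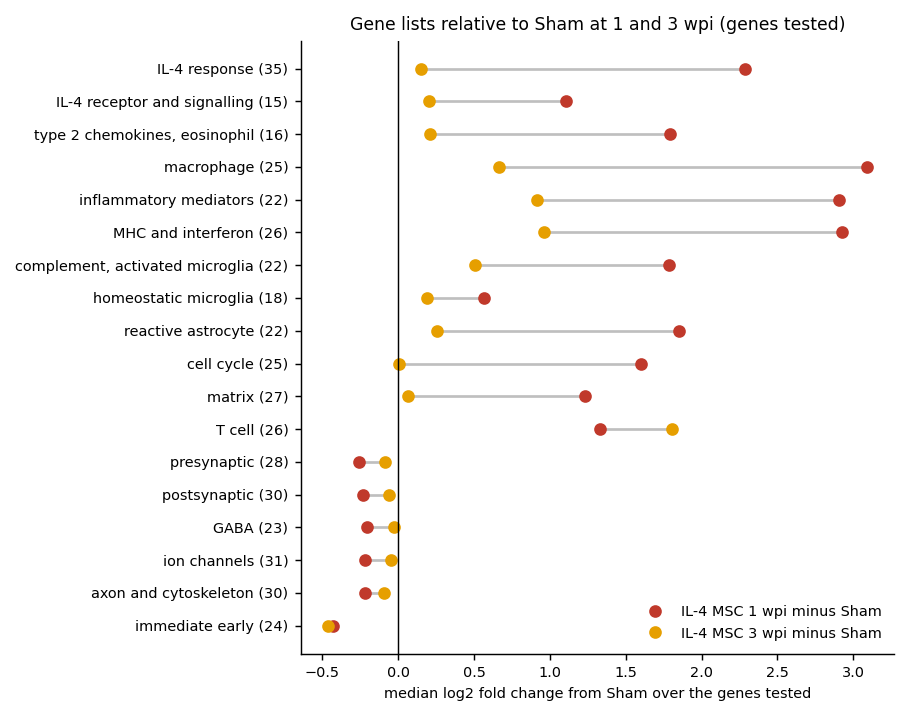
Median log2 fold change from Sham of the tested genes of 18 lists in the IL-4 MSC mice at 1 wpi (red) and 3 wpi (orange). Immune, glial and cell cycle lists lay to the right of 0 at 1 wpi and nearer to 0 at 3 wpi, neuronal lists lay between -0.21 and -0.43 at 1 wpi, and the T cell list alone among the immune lists did not move towards 0.

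All 25 cell cycle genes fell (against 16.6% of all genes), with a median of -1.63. Their median difference from Sham was 1.60 at 1 wpi and 0.01 at 3 wpi. Top2a, the DNA topoisomerase of dividing cells, was at 24.6, 20.5, 15.4, 17.8 and 18.1 CPM at 1 wpi and at 2.77, 3.10, 2.15, 2.32 and 2.31 CPM at 3 wpi. The 3 wpi mice were nearly alike and all far below the 1 wpi mice, a fall of 2.93. The mitotic kinase genes Cdk1, Bub1 and Aurkb fell by 3.06, 2.97 and 2.89, and Mki67, the proliferation antigen Ki-67, by 2.70. This fall was shared by the other injured groups: 24 of the 25 genes fell in MSC mice and 23 in PBS mice, and 1 of 25 differed in the test of the IL-4 MSC against the MSC week difference.

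Extracellular matrix genes were lower at 3 wpi in 25 of 27 cases (92.6%, against 16.6% of all genes), with a median of -1.19. The collagen crosslinker Lox was at 34.8, 30.5, 28.0, 25.1 and 15.3 CPM at 1 wpi and at 1.27, 1.61, 1.30, 1.5 and 1.67 CPM at 3 wpi, a fall of 4.18. Fn1, fibronectin, which is also on the IL-4 list, went from 274 to 422 CPM to 70.7 to 85.0 CPM. The fibrillar collagen Col3a1 fell by 3.28 in IL-4 MSC mice, 3.06 in MSC mice and, without passing the test, had a week difference of -0.99 in PBS mice. Col6a1 was not called between weeks and was 0.61 above Sham at 3 wpi (adjusted p = 0.0064).

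T cell genes moved in both directions. Of 26 tested, 5 rose (against 16.4% of all genes), 4 fell (against 16.6%) and 17 were not called. The counts of rises and falls were thus near those over all genes. Above Sham were 15 at 1 wpi (18.4% of all genes) and 12 at 3 wpi (2.76% of all genes). Among the falls, the granzyme gene Gzma went from 1.80, 4.49, 3.00, 2.91 and 1.07 CPM to 0.198, 0.158, 0.0976, 0 and 0.106 CPM. Gzmb, Ccl5 and Cd28 also fell. Among the rises, the co-receptor chain Cd8b1 went from 0.196, 0.247, 0.280, 0.0899 and 0 CPM to 0.762, 0.537, 0.813, 0.273 and 0.743 CPM. The weeks overlapped by 1 mouse, and Cd8b1 rose by 1.91 on the log2 scale (adjusted p = 0.0047). Cd8a rose by 0.97, Cd3g by 1.31, Trbc2 by 0.45 and Cd4 by 1.38. The values of Cd4 followed the spread of the region markers described below, with 1.74 CPM in 3 wpi mouse 2 and 11.4 to 19.4 CPM in the other 4. In MSC mice 9 T cell genes rose from 1 to 3 wpi (1.22% of all genes) and in PBS mice none did (0.613% of all genes). The median week difference was 0.65 in MSC mice and -0.16 in PBS mice. Most of these genes were below 1 CPM, and the count of 5 rises dropped to 2 or 3 under most alternatives. The MSC values keep MSC 3 wpi mouse 5. Its mean log2 CPM of the list was 0.16, against -0.98 to -0.30 in the other MSC 3 wpi mice.

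Most markers of the injected cells were no longer called above Sham by 3 wpi. The MSC marker list holds 14 tested genes of limb and trunk mesenchyme and stromal cells. Of these, 11 fell (78.6%, against 16.6% of all genes) and none rose. Above Sham were 10 of them at 1 wpi (18.4% of all genes) and 1 at 3 wpi (2.76% of all genes). Hoxc10, a posterior homeobox gene that forebrain cells do not normally express, was at 0.359, 0.603, 0.617, 0.569 and 0.261 CPM at 1 wpi and at 0 counts in all 5 mice at 3 wpi. Hoxa10 and Hoxa9 were at 0 counts in all 5 mice at 3 wpi too, and Hoxc6 in 4 of the 5. All Sham and PBS mice had 0 counts of Hoxc10, and MSC mice had 0.0267 to 0.739 CPM at 1 wpi and 0 counts at 3 wpi. The mean log2 CPM of the list was 1.28 to 1.72 at 1 wpi and 0.24 to 0.31 at 3 wpi in IL-4 MSC mice, and 0.20 to 0.46 in Sham. The loss of these markers went along with the fall of the IL-4 response, and its part in that fall was not tested. Counts of 0 at this depth do not show that the injected cells were gone. By histology the paper often saw cell clusters in MSC and IL-4 MSC brains at 3 wpi.

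Neuronal genes were examined in 6 lists, which together held 165 tested genes. Relative to Sham they were lowered at 1 wpi, with a median of -0.24 and 127 genes lower (18.5% of all genes were). From 1 to 3 wpi 85 rose (51.5%, against 16.4% of all genes), 2 fell and 78 were not called, and in 57 of the 165 (8.62% over all genes) every 3 wpi mouse was above every 1 wpi mouse. At 3 wpi the median against Sham was -0.09, with 24 genes still lower (1.52% of all genes were) and 1 higher (2.76% of all genes were). The rises were small, with a median of 0.15 on the log2 scale, and their direction held with DESeq2's size factors in place of the TMM scaling (79 genes higher, median 0.14).

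Genes of the presynaptic release machinery rose in 19 of 28 cases (67.9%, against 16.4% of all genes) and fell in none, with a median of 0.16. Snap25, a SNARE protein of vesicle fusion (chromosome 2, 136713453 to 136782428, plus strand), was at 1656, 1727, 1772, 1727 and 1883 CPM at 1 wpi. At 3 wpi Snap25 was at 1997, 1996, 2277, 2079 and 2102 CPM, and Sham mice were at 2029 to 2442 CPM. Every 3 wpi mouse was above every 1 wpi mouse, and the 3 wpi mice ran into the Sham range. Snap25 rose by 0.25 on the log2 scale (SE 0.05, adjusted p = 0.000265) after being 0.31 below Sham at 1 wpi, and its difference from Sham at 3 wpi was -0.06 (adjusted p = 0.6). Its week difference was 0.16 in MSC mice and 0.19 in PBS mice, and the IL-4 MSC and MSC values did not differ past the threshold (adjusted p = 0.53).

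Syt1, the calcium sensor of vesicle release, went from 1303, 1251, 1314, 1313 and 1395 CPM to 1450, 1524, 1570, 1464 and 1463 CPM. Unc13a, a vesicle priming factor, went from 365, 364, 346, 369 and 365 CPM to 425, 408, 482, 474 and 455 CPM. Cplx2, complexin 2, went from 928, 986, 954, 965 and 975 CPM to 1236, 1034, 1271, 1348 and 1280 CPM. In all 3 genes the weeks did not overlap. Syt1 rose by 0.18 (adjusted p = 0.000639), Unc13a by 0.31 (adjusted p = 4.93e-05), and Cplx2 by 0.36. Slc32a1, the vesicular GABA transporter, rose by 0.64, the most of the list, from 69.7, 87.8, 105, 104 and 82.1 CPM to 154, 71.8, 132, 191 and 151 CPM. Here 3 wpi mouse 2 was inside the 1 wpi range, and with the hippocampus markers as a covariate the call for Slc32a1 was lost (adjusted p = 0.0859). The count of 19 presynaptic rises dropped to 12 without 3 wpi mouse 2 or without 1 wpi mouse 2.

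Postsynaptic glutamate genes rose in 18 of 30 cases (60%, against 16.4% of all genes) and fell in none, with a median of 0.18. The scaffold gene Homer1 rose by 0.45, the glutamate receptor genes Grm3 and Grm5 by 0.40 and 0.36, the calmodulin-binding protein gene Nrgn by 0.37, the scaffold genes Dlg2 and Dlg4 by 0.32 and 0.27 and the NMDA receptor subunit gene Grin1 by 0.23. Grin2a, Grin2b and Gria1 were not called. Camk2a, the kinase of synaptic potentiation (chromosome 18, 60925618 to 60988152, plus strand), was at 2291, 2345, 2290, 2197 and 2452 CPM at 1 wpi and at 2251, 2488, 2647, 2490 and 2454 CPM at 3 wpi. The weeks overlapped, and the log2 fold change of 0.09 did not pass the test (adjusted p = 0.37). With the region markers as covariates Camk2a was called.

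Genes of inhibitory neurons rose in 12 of 23 cases (52.2%, against 16.4% of all genes) and fell in none, with a median of 0.19. Gad1, which makes GABA from glutamate, was at 237, 267, 311, 317 and 279 CPM at 1 wpi and at 430, 288, 408, 508 and 441 CPM at 3 wpi, a rise of 0.56. Only 3 wpi mouse 2 lay inside the 1 wpi range. The related enzyme gene Gad2 rose by 0.50, but it lost the call with the striatum markers (adjusted p = 0.0509), the hippocampus markers (0.226) or both (0.171) as covariates, and with only the groups of the comparison in the fit (0.0551). The neuropeptide genes Vip and Sst rose by 0.45 and 0.34, and the receptor subunit gene Gabrg3 by 0.45.

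Ion channel genes rose in 19 of 31 cases (61.3%, against 16.4% of all genes) and fell in none, with a median of 0.18. Cacna2d3, an auxiliary calcium channel subunit, was at 76.5, 78.9, 81.1, 80.8 and 79.7 CPM at 1 wpi and at 99.7, 86.1, 123, 141 and 115 CPM at 3 wpi. The 1 wpi mice were within 5 CPM of each other and all below the 3 wpi mice, a rise of 0.51. The potassium channel genes Kcnq5, Kcnh1 and Kcnt1 rose by 0.46, 0.44 and 0.39, and Kcnt1 was 0.34 above Sham at 3 wpi (adjusted p = 0.039).

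Axonal and cytoskeletal genes rose in 13 of 30 cases (43.3%, against 16.4% of all genes), with a median of 0.10. Cntnap1, a protein of the paranodal junction, rose by 0.24, the reticulon gene Rtn1 and the Nogo co-receptor gene Lingo1 by 0.21 each, the motor protein gene Kif5c by 0.20 and Map2, a dendritic microtubule protein, by 0.17. Neurofilament genes were not called between the weeks and were still below Sham at 3 wpi. Their log2 differences from Sham were -0.50 for the heavy chain Nefh (adjusted p = 0.003), -0.26 for the light chain Nefl (adjusted p = 0.018) and -0.27 for alpha-internexin, Ina (adjusted p = 0.0011). The microtubule protein gene Map1b, also not called, differed from Sham by -0.25 (adjusted p = 0.003). Of the 30 genes 27 were below Sham at 1 wpi (18.5% of all genes) and 6 at 3 wpi (1.52% of all genes).

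Immediate early genes, which neuronal activity switches on within minutes, were mostly not called between the weeks. Of 24 genes 5 rose (20.8%, against 16.4% of all genes) and 2 fell (8.33%, against 16.6%), so the share of rises was near that over all genes. The median week difference was 0.05. Below Sham were 14 at 1 wpi (18.5% of all genes) and 13 at 3 wpi (1.52% of all genes). Fos, the prototype of the family, was at 14.5, 21.5, 18.8, 17.8 and 14.3 CPM at 1 wpi and at 14.4, 18.6, 15.5, 11.7 and 14.7 CPM at 3 wpi, against 23.7 to 40.1 CPM in Sham. The weeks overlapped in part, and Fos was 1.04 below Sham on the log2 scale at 3 wpi (adjusted p = 0.0027). The differences from Sham at 3 wpi were -0.88 for Nr4a1 (adjusted p = 0.003), -0.71 for Arc (adjusted p = 0.046) and -0.64 for Bdnf, a neurotrophin gene (adjusted p = 0.0028). The 5 that rose were Egr4, Homer1, Egr3, Ier5 and Vgf. Egr4 went from 15.9, 16.3, 17.0, 17.3 and 16.5 CPM to 21.0, 22.4, 29.0, 26.2 and 20.8 CPM, without overlap, and was still 0.44 below Sham (adjusted p = 0.033). The 2 that fell, Fosl2 and Jun, fell by 0.47 and 0.33 and are also expressed by glia. In MSC mice 3 genes of this list rose and none fell, with a median of 0.20, and in PBS mice the median was 0.15 and none was called. The count of 5 rises was 2 or 3 under several alternatives.

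**Figure D3:**
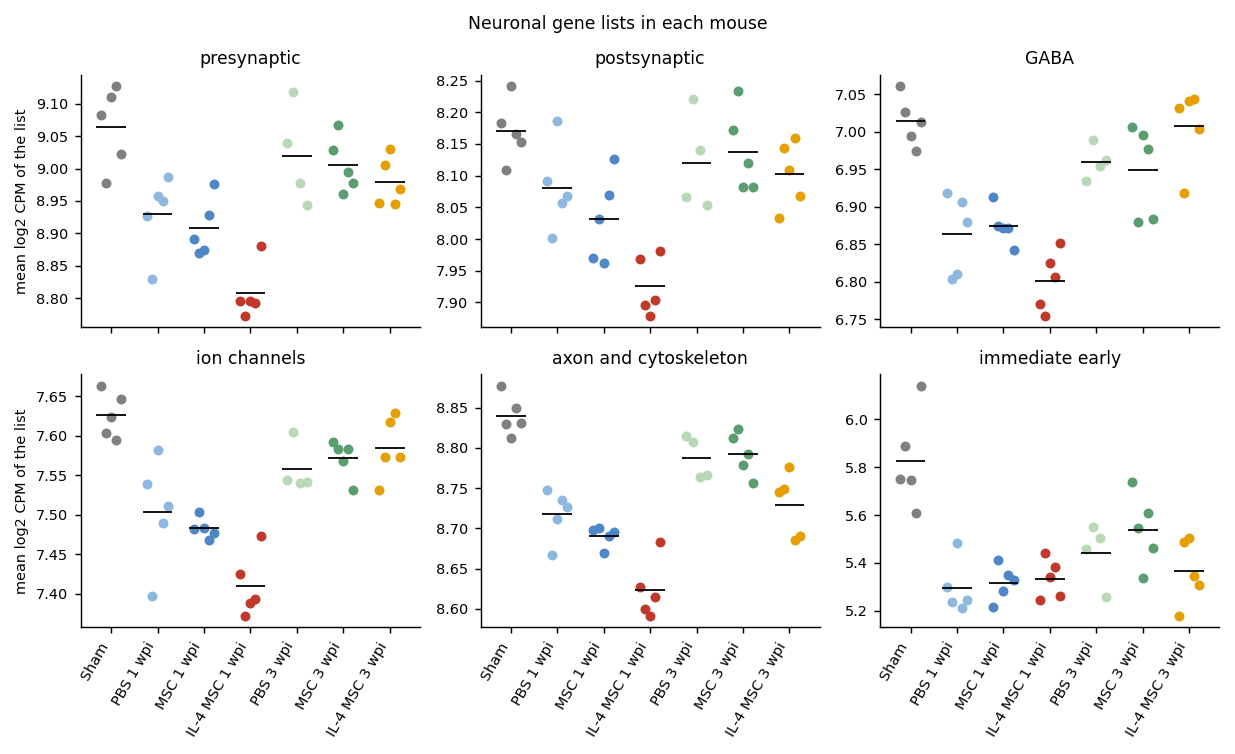
Mean log2 CPM of the tested genes of 6 neuronal lists in each mouse; each point is a mouse. In IL-4 MSC mice the presynaptic score was 8.77 to 8.88 at 1 wpi, 8.95 to 9.03 at 3 wpi and 8.98 to 9.13 in Sham, while the immediate early scores of the 2 weeks overlapped and lay below Sham.

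Energy metabolism genes shifted by small steps. Of 30 respiratory chain genes 14 rose (46.7%, against 16.4% of all genes) and none fell, with a median of 0.10. Atp5a1, the alpha subunit of ATP synthase, was at 590, 596, 605, 603 and 611 CPM at 1 wpi and at 647, 658, 667, 661 and 655 CPM at 3 wpi, without overlap, a rise of 0.13. The complex I subunit gene Ndufs1 rose by 0.15. The count of 14 depended on single mice and on the scaling: it was 3 without 3 wpi mouse 2 or 3, and 8 with DESeq2's size factors. Of 23 cholesterol synthesis genes 6 rose (26.1%, against 16.4% of all genes) and 1 fell (against 16.6%), with a median of 0.12. Below Sham were 17 at 1 wpi (18.5% of all genes) and 2 at 3 wpi (1.52% of all genes). Srebf2, the transcription factor that drives the pathway, rose by 0.25, from 172 to 189 CPM at 1 wpi to 203 to 226 CPM at 3 wpi. The count of 6 dropped to between 1 and 3 when single mice were left out.

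A set of injury-lowered genes was also taken from mice outside the comparison. It holds the 567 genes that were below Sham at 1 wpi in both the PBS and the MSC mice. The contrasts that chose it compared no IL-4 MSC mice, but all 34 libraries shared the filter, the scaling and the estimate of spread. In IL-4 MSC mice 434 of the 567 (76.5%, against 16.4% of all genes) rose from 1 to 3 wpi, 4 fell and 129 were not called, with a median of 0.16. Against Sham, whose libraries did take part in the choice, 546 were lower at 1 wpi (18.5% of all genes) and 70 at 3 wpi (1.52% of all genes). The mirror set of 1352 injury-raised genes fell in 1215 cases (89.9%, against 16.6% of all genes) and rose in 2, with a median of -0.88. Of the 1352 genes, 1304 were above Sham at 1 wpi (18.4% of all genes) and 207 at 3 wpi (2.76% of all genes).

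Regional composition differed between the 3 wpi mice and moved with some of the rises. Among the genes of striatal neurons 13 of 16 rose (81.25%, against 16.4% of all genes), with a median of 1.32, yet none had separate weeks. Drd2, the D2 dopamine receptor gene, was at 8.46, 13.8, 19.7, 19.8 and 10.7 CPM at 1 wpi and at 41.9, 6.54, 38.4, 72.2 and 48.9 CPM at 3 wpi. Mouse 2 at 3 wpi was below every 1 wpi mouse and the other 4 were above them. The mean log2 CPM of the striatum markers was 4.33 to 5.33 at 1 wpi and 6.16, 4.20, 6.10, 6.92 and 6.39 at 3 wpi. In the Sham mice it was 3.30 and 3.14 in the week 1 mice and 5.09, 5.25 and 5.37 in the week 3 mice. The mean of the hippocampus markers went the other way, from 3.69 to 3.81 at 1 wpi to 2.43, 4.26, 3.44, 2.22 and 3.33 at 3 wpi, with mouse 2 again apart. Without 3 wpi mouse 2, 8 hippocampus markers were lower at 3 wpi, against none with it.

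**Figure D4:**
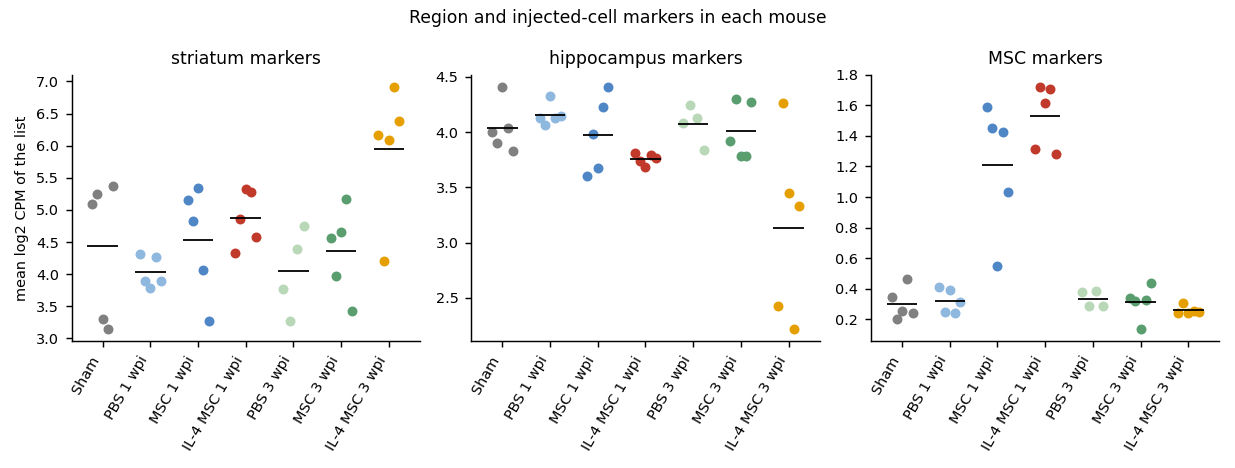
Mean log2 CPM of the markers of striatum, hippocampus and injected MSCs in each mouse; each point is a mouse. Among IL-4 MSC mice at 3 wpi, mouse 2 had the lowest striatum score (4.20) and the highest hippocampus score (4.26), and the MSC marker scores of 0.24 to 0.31 lay in the Sham range of 0.20 to 0.46.

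Of the genes with the largest rises relative to the MSC mice, Rxrg, Syndig1l, Lrrc10b and Pde10a had this same pattern, as did Gad1, Slc32a1 and Hs3st2, a cortical marker. Rgs9, a striatal signalling regulator, had a log2 fold change of 1.40 that became -0.042 once the striatum markers were a covariate, and Sh3rf2 went from 1.43 to -0.21. Both genes are members of the striatum marker list. A covariate built from that list takes up their change by construction, so these drops say nothing about other genes. Of the neuronal lists, 101 genes rose with the striatum markers as a covariate, 96 with the hippocampus markers and 100 with both, against 85 without. Single members such as Gad2 and Slc32a1 lost their calls with the hippocampus markers. The part of tissue region in the neuronal rises was not tested. The fall of the IL-4 list was 27 genes with each of these covariates, against 29.

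The largest rises with separate weeks were in genes of low level. Cyp2g1, a cytochrome P450, was at 0, 0, 0.0561, 0 and 0.0290 CPM at 1 wpi and at 0.423, 0.221, 2.80, 2.05 and 0.318 CPM at 3 wpi, with Sham at 0.216 to 2.46 CPM. The gene was thus at or under the level of 3 counts at 1 wpi and inside the Sham range at 3 wpi. Bpifb9b and Cyp2a5 were the next largest, and the remaining 7 (Pcdha8, Abcc12, Asb11, Myo15b, Dazl, Myh2 and Ano3) rose by 0.72 to 1.02 on the log2 scale. Among the 10 largest falls were also Mefv, Ifi202b, Msx3, Retnlg and Hmga1b. Msx3, a homeobox gene of the dorsal neural tube, was at 5.62, 6.00, 5.78, 5.06 and 3.75 CPM at 1 wpi and at 0.0847, 0.0632, 0, 0.136 and 0.0265 CPM at 3 wpi. Retnlg may share reads with its relative Retnla, and Hmga1b with Hmga1, so their split is uncertain.

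To see what belonged to the IL-4 MSC mice, their week difference was tested against that of the other injured groups. Against the MSC mice 1021 genes (5.96%) fell more or rose less and 325 (1.90%) did the reverse, 7.86% in all. Against the PBS mice 673 (3.93%) and 135 (0.788%) did, 4.72% in all. Within the MSC mice alone 209 genes (1.22%) rose and 845 (4.93%) fell between the weeks, and within the PBS mice 105 (0.613%) rose and 839 (4.90%) fell. The higher counts depended on single mice. For the MSC comparison the count was 123 without MSC 3 wpi mouse 5. Leaving out that mouse or 1 IL-4 MSC mouse at a time gave 97 to 544. The other MSC mice were not left out.

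The IL-4 list differed between the groups. Its median week difference was -2.22 in IL-4 MSC mice, -0.06 in MSC mice and -0.18 in PBS mice. Of the 35 genes, 22 fell more than in MSC mice and 17 more than in PBS mice. The MSC values here keep MSC 3 wpi mouse 5. Its mean log2 CPM of the list was 1.44, against 0.65 to 0.79 in the other MSC 3 wpi mice. For Mrc1 the week difference was 3.70 more negative than in MSC mice (adjusted p = 2.4e-11), for Ccl24 5.96 (adjusted p = 8.3e-10) and for Chil3 7.72 (adjusted p = 5.2e-05). Arg1 also fell in the other groups, and its difference from the MSC value was -5.44 (adjusted p = 0.0175). In the antigen presentation and interferon list 24 of 26 genes fell more than in MSC mice, a larger share than in the IL-4 list. The counts were 13 of 22 for reactive astrocytes, 13 of 25 for macrophages, 10 of 22 for disease-associated microglia and complement and 10 of 15 for IL-4 signalling. Falls between the weeks were also called within MSC and PBS mice (4.93% and 4.90% of all genes). These were 10 and 13 of 25 macrophage genes and 12 and 13 of 22 inflammatory genes. In the antigen presentation and interferon list they were 12 and 16 of 26. Pecam1, an endothelial and leukocyte adhesion gene, went from 45.2, 52.4, 49.3, 44.5 and 36.5 CPM to 19.1, 19.4, 21.2, 19.6 and 19.2 CPM in IL-4 MSC mice, while the MSC mice had 20.2 to 26.2 CPM at 1 wpi and 19.2 to 27.6 CPM at 3 wpi. Its difference from the MSC week difference passed the test (adjusted p = 2.8e-07).

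The neuronal lists were compared in the same way. Of the 165 neuronal genes 6 differed upward from the MSC week difference (1.90% of all genes) and 1 downward (5.96%). Upward from that of PBS were 4 (0.788% of all genes). Between the weeks 18 rose in MSC mice (1.22% of all genes) and 4 in PBS mice (0.613%). The 6 upward from MSC were Kcnq5 (adjusted p = 0.0058), Grik2 (0.019), Dlg2 (0.021), Gad1 (0.021), Cacna2d3 (0.024) and Kcnh1 (0.026). Among them Gad1 had the regional pattern described above. Over all genes the upward count against MSC was 325, and it was 123 without MSC 3 wpi mouse 5 and 87 with the hippocampus covariate. The median presynaptic score over mice was 8.80 at 1 wpi in IL-4 MSC mice, 8.89 in MSC mice and 8.95 in PBS mice. At 3 wpi these medians were 8.97, 8.99 and 9.01, closer together than at 1 wpi.

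**Figure D5:**
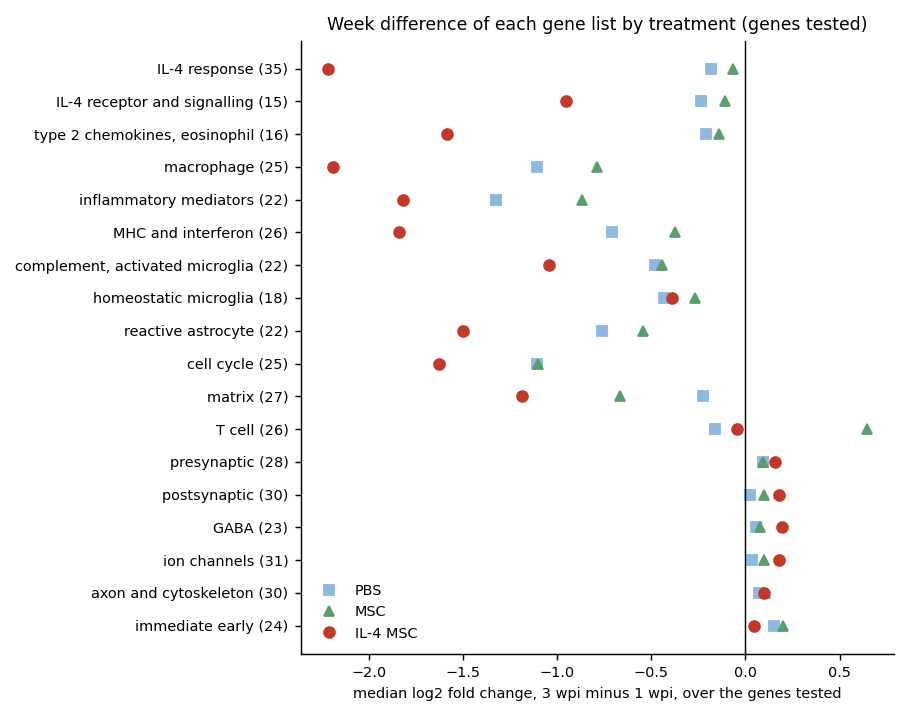
Median log2 fold change from 1 to 3 wpi of the tested genes of each list in PBS (squares), MSC (triangles) and IL-4 MSC mice (circles). The IL-4 response list was at -2.22 in IL-4 MSC mice, -0.06 in MSC mice and -0.18 in PBS mice, and the 3 groups lay close together for the presynaptic list (0.16, 0.09 and 0.09).

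Time and age without injury could be looked at only in the 2 week 1 and 3 week 3 Sham mice. Between them 7 genes were higher and 9 lower at week 3 in edgeR's test (2697 of 17362 at an unadjusted p under 0.05). The week difference of the IL-4 MSC mice differed from that of Sham in 1187 genes (6.84%) upward and 1985 (11.4%) downward. Among the lists, 22 of 35 IL-4 response genes and 25 of 25 cell cycle genes fell more than in Sham, and 13 of 28 presynaptic genes rose more. The striatum markers had a median week difference of 1.77 in Sham and none differed from it in the IL-4 MSC mice. Against the Sham mice of the same week alone, the IL-4 MSC mice had 3092 genes higher (17.8%) and 2797 lower (16.1%) at 1 wpi, and 83 higher (0.478%) and 82 lower (0.472%) at 3 wpi.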

How the data were processed

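Total RNA of 1 mouse per library was sequenced. The submitters' processing notes name cutadapt 2.4, FastQC 0.11.8, kallisto 0.46, sleuth 0.30 and R 3.6.1. The authors quantified the reads against protein-coding transcripts of GENCODE vM23 (GRCm38), and the deposited table holds kallisto's estimated counts per gene, of which 63.688% of values were not whole numbers. Reads are thus shared between near copies by estimation. The authors also deposited TPM values from kallisto, which were read but support no statement here, and fold changes with p-values of their own comparisons, which were not used. In addition, 1 PBS 3 wpi library that the authors had excluded was not analysed here.

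The estimated counts were rounded and fitted in edgeR 4.0.16 (R 4.3.3, limma 3.58.1) with TMM scaling, filterByExpr by group, quasi-likelihood tests over all 34 libraries in 7 groups and Benjamini-Hochberg adjustment over all genes tested. A gene was called, that is rose or fell, at a two-sided adjusted p under 0.05. Differences between groups' week differences were interaction contrasts. CPM are TMM-scaled, and log2 CPM of list scores used a prior count of 2. SE was taken as the size of the log2 fold change divided by the square root of F. The level of 3 counts covers counting error only. Each mouse is 1 replicate.

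The gene lists were assembled by hand. The members and lists were chosen with earlier results of these data known, so they are a description, not independent support. Genes were named by this rule: the 10 largest falls and rises among called genes without overlap, with a mean of at least 1 CPM in the higher group and no predicted-gene symbol; up to 4 called genes per list by size of change; the 5 largest differences each way from the MSC week difference; and Il4, Arg1, Chil3, Mrc1, Retnla, Ccl2, Gfap, Snap25, Syt1 and Camk2a. List members named beyond it were chosen after their values were seen. Positions are from GENCODE vM21 (GRCm38) and promoter sequences from RefSeq. The scripts were tested on simulated data. Alternatives were DESeq2 1.42.0, its size factors, no filter, region covariates, a replicate block, other sets of libraries and leaving out single mice. The mice left out, 1 at a time, were each IL-4 MSC mouse and MSC 3 wpi mouse 5. No PBS or Sham mouse and no other MSC mouse was left out.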

Additional observations from a re-analysis of the deposited data

Results flagged for a closer look

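Outliers were sought in the named genes and list scores within each of the 2 IL-4 MSC groups of 5 mice, by the gap of the highest or lowest mouse relative to the range. Of 308 values examined, 23 passed, where chance gives about 1 in 20. At 1 wpi, mouse 5 was the lowest for Arg1 (106 CPM) and the highest for Oasl2 (52.4 CPM) and the presynaptic score (8.88). Mouse 2 was apart at 1 wpi for Ccr3 (1.92 CPM) and Rtn1 (604 CPM), mouse 3 for Unc13a (346 CPM) and Cyp2a5 (0.252 CPM), and mouse 1 for Hbb-bt (0.979 CPM). At 3 wpi, mouse 2 was the highest for Ccl2 (0.443 CPM), Chil3 (1.33 CPM) and the MSC marker score (0.309), and mouse 3 was apart for Cxcl1 (0.650 CPM) and Pecam1 (21.2 CPM). Mouse 4 was apart at 3 wpi for Fdft1 (59.1 CPM), Mx1 (0.546 CPM) and Pdcd1lg2 (0.109 CPM), and for the scores of inflammatory mediators (-0.404), T cells (-1.16) and type 2 immunity (-1.49). Mouse 5 was apart at 3 wpi at levels near 0 for Hmga1b (0.159 CPM), Hoxc6 (0.0265 CPM), Ifi202b (0.0265 CPM) and Mefv (0.0531 CPM). In T cells mouse 4 was the lowest, while the other 4 mice lay between -0.39 and -0.33.

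The week difference of IL-4 MSC mice differed from that of MSC mice in 1346 genes and from that of PBS mice in 808 genes, by interaction contrasts in edgeR. The largest differences downward from the MSC value, on the log2 scale, were those of Chil3 (-7.72), Msx3 (-7.07), Ccl8 (-5.99), Ccl24 (-5.96) and Retnla (-5.94), and Arg1 (-5.44) and Mrc1 (-3.70) also differed. The largest upward were those of Rxrg (1.80), Fmo2 (1.76), Syndig1l (1.70), Lrrc10b (1.67) and Pde10a (1.56). Apart from Fmo2, a flavin monooxygenase, these last genes varied with the striatum markers among the 3 wpi mice, and the part of tissue region in their difference was not tested.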

How the results depend on the processing

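When genes also had to change by 1 or more on the log2 scale, 72 genes were higher and 917 lower. Upward differences from the MSC week difference were 87 with the hippocampus covariate, 195 with both region covariates and 204 with only the groups of the comparison. Upward differences from PBS were 88 with DESeq2's size factors, 89 with Sham split by week, 60 with the hippocampus covariate and 38 with only the groups of the comparison. The cause was not tested. Leaving out 1 mouse at a time (each IL-4 MSC mouse and MSC 3 wpi mouse 5) gave 1547 to 2623 higher and 2668 to 3540 lower genes, 27 to 29 lower IL-4 list genes with a median of -2.24 to -2.002, 66 to 86 higher neuronal genes with a median of 0.106 to 0.160, and 304 to 421 higher injury-lowered genes. Against MSC it gave 97 to 544 upward and 820 to 1504 downward differences. Against PBS it gave 28 to 273 upward and 591 to 1019 downward, the last without 3 wpi mouse 2. Against Sham it gave 900 to 1392 upward and 1792 to 2126 downward. Sh3rf2 and Rgs9 reversed to -0.21 and -0.042 with the striatum covariate and to -0.12 and -0.052 with both. Both genes are part of the striatum score, so a drop was built into these fits. With only the 2 groups in the fit, 2224 genes were higher and 2933 lower.

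Replicate numbers did not pair the mice: same-numbered mice correlated at -0.130, 0.054, -0.020, 0.065 and -0.089 in their deviations. With the replicate block 2822 genes were higher and 2882 lower, with 29 lower IL-4 list genes and 83 higher neuronal genes. The IL-4 list and neuronal lists kept their direction under every alternative run. Genes under about 0.1 CPM were near the limit of 3 counts, so their fold changes have little support from depth. The region covariates, and leaving out MSC 3 wpi mouse 5, were chosen after seeing the data.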

Other observations

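Alpha-globin RNA did not move with beta-globin RNA. Hba-a2, an adult alpha-globin gene (chromosome 11, 32296489 to 32297298, plus strand), was at 162, 255, 214, 226 and 66.8 CPM in the IL-4 MSC mice at 1 wpi and at 3.33, 14.6, 20.3, 7.59 and 15.0 CPM at 3 wpi. Every 1 wpi mouse was above every 3 wpi mouse, and the other 5 groups held 0.648 to 27.9 CPM. Hba-a2 fell by 3.94 on the log2 scale (adjusted p = 7.29e-06, edgeR), and this differed from its week difference in MSC mice (adjusted p = 0.00095).

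The near copy Hba-a1 was at 0.457, 0.356, 0.224, 0.180 and 0.581 CPM at 1 wpi and at 0.339, 2.78, 5.04, 1.80 and 4.06 CPM at 3 wpi, and it rose by 2.95 (adjusted p = 0.00256). Reads shared by Hba-a1 and Hba-a2 make their split uncertain. Hbb-bt, a beta-globin gene, was at 0.979, 0.301, 0.280, 0.270 and 0.203 CPM at 1 wpi and at 0.508, 2.09, 4.42, 1.67 and 2.55 CPM at 3 wpi, a rise of 2.48 (adjusted p = 0.00903). Hbb-bs, the other adult beta-globin gene, was at 1.59 to 4.70 CPM at 1 wpi. These genes were examined further after their values were seen, and the origin of the Hba-a2 reads was not tested.

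Endothelial markers were lower at 3 wpi in 7 of 12 cases (58.3%, against 16.6% of all genes) and higher in 2 (16.7%, against 16.4%). Cldn5, a tight junction gene, went from 49.2, 54.0, 43.7, 42.6 and 35.5 CPM to 32.2, 31.7, 28.6, 26.3 and 26.1 CPM. Flt1, a receptor of vascular growth factor, went from 108 to 126 CPM to 80.2 to 90.8 CPM. In both genes the weeks did not overlap, and both differed from the MSC week difference (adjusted p = 0.0058 and 0.00025). The pericyte gene Rgs5 moved the other way, from 79.8 to 103 CPM to 105 to 114 CPM. Oligodendrocyte markers were lower in 3 of 14 cases, Olig2, Olig1 and Cldn11, a share near the 16.6% of all genes that fell, and the median of the list was 0.006.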
